A study of Oncorhynchus mykiss with 38 samples.

Results

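The clones described here are 46 of the 9024 cDNA clones with values on a rainbow trout (Oncorhynchus mykiss) array. As a set, their median signal was near background up to stage IIIb, when the testis holds meiotic cells, and above it in stage V, when post-meiotic spermatids are present. They were chosen for this on group means of log2 signal. The mean in stage V had to exceed that in stage IIIb by at least 0.6 and that in stage I by at least 0.8, the mean in stage IIIb had to lie less than 0.5 above that in stage IIb, and the mean in stage V had to reach 8.17. Of 49 clones that met these conditions, the clones of spata4, lipe1 and lipea were left out. Clones of these genes and of ift122, cetn4 and hmgb1a were barred by name. The values in stages I, IIb, IIIb and V therefore describe the choice and were not tested, whereas stages IIa and VIII and the isolated germ cells took no part in it.

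Spermatogenesis takes spermatogonia through mitotic divisions, spermatocytes through meiosis and haploid spermatids through a change of shape that ends in spermatozoa. In the spermatid the flagellum is built, the nucleus condenses and most cytoplasm is shed, and many transcripts that serve these steps are made only after meiosis has begun. Rainbow trout spawn once a year, so that the testis passes through these steps as a wave and whole testes at successive dates differ in the most advanced germ cell they hold.

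The study hybridised RNA of 38 samples to 38 nylon arrays, and its labels name no gene modification or treatment in any group. Whole testes were in stage I (n = 5, slowly dividing type A spermatogonia as the only germ cells), stage IIa (n = 4, first type B spermatogonia), stage IIb (n = 4, more of these), stage IIIb (n = 3, with spermatocytes), stage V (n = 4, with spermatids) and stage VIII (n = 3, spawning testes holding mostly spermatozoa). Isolated germ cells came from pooled testes that were digested with collagenase and separated by elutriation, and were enriched, not pure, in spermatogonia (n = 6), spermatocytes (n = 6) or spermatids (n = 3). The Methods give immature males (stages I to II) and fish in early maturation (stages III to IV) as donors. Spermatogonia came from the immature fish and the later cells from more mature ones. Cell type and donor stage thus cannot be told apart, and no stage V testis is named as a source. The age of the fish was not given in the sources used here, and nothing stated that replicates were separate animals, so that a p-value is taken over the spread of these samples. All arrays had the same distribution of log2 signal, with a median of 8.166 that the Methods take as background and a range of 5.308 to 13.379. In whole testes, less RNA per cell and fewer cells of a type cannot be told apart.

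Almost all of the 46 clones were anonymous in the annotation used here. The paper linked most clones of the array to a gene of a model fish, but those names were not held for the 46. The lack of a name is thus a limit of the annotation and no trait of these clones. A gene symbol was held for 681 of the 9024 clones, and for 2 of the 46. These were tcav0005.i.04, listed as si:ch211-137i24.10, and tcbk0031.b.24, listed as LOC100301659, and neither symbol states a function. The other 44 clones are named by their clone number alone. Lists of genes with known roles in late germ cells held no member either, which says little. Their matches cetn4, ift122 and spata4 were barred by name, so that only Txndc6 could have been a member. The list of flagellum, cilium and centriole genes matched 4 clones of 3 genes, namely cetn4 (a centrin of the centriole), ift122 (intraflagellar transport, 2 clones) and Txndc6 (a thioredoxin domain protein of the sperm flagellum in mammals), and the list of spermatid differentiation matched the left-out clone of spata4.

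In the stages that chose them, the 46 clones had a median of their group means of 7.93 in stage I, of 8.04 and 8.19 in stages IIb and IIIb, and of 9.10 by stage V. A mean at or above background was found for 17 clones in stage I (4507 of all 9024 clones), 21 in stage IIb (4491) and 23 in stage IIIb (4497). In stage V it was found for all 46 (4512 of all clones), which the required mean of 8.17 fixed in advance. From stage IIIb to stage V the clones gained between 0.61 and 1.35, with a median of 0.81, and from stage I to stage V between 0.81 and 2.33, with a median of 1.21. Between stages IIb and IIIb the difference ran from -0.52 to 0.50, with a median of 0.35. A gain of at least 0.6 from stage IIIb to stage V was found for 2.4% of all clones.

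At each limit of the choice, clones just inside and just outside had close values of the condition, while their signal in other groups could differ. At the gain of 0.6, clone 1rt102a19_a_a10 lay just inside with 0.608 and tcbk0062.k.02 just outside with 0.599. At the limit on the earlier rise, tcay0005.n.11 lay just inside with 0.498 and tcba0024.b.23 just outside with 0.506. The means in spermatocytes and spermatids were 7.91 and 9.08 for tcay0005.n.11 and 8.66 and 8.56 for tcba0024.b.23. Behind the mean of 9.08 were values of 8.90, 7.95 and 10.41 in spermatid replicates 1 to 3. For the gain over stage I, 1rt46o07_a_h04 lay inside with 0.809 and tcav0002.l.10 outside with 0.797. The lowest stage V mean inside was 8.27, that of 1rt102a19_a_a10, and the nearest outside was 8.14, that of tcay0018.i.21. A single failed condition kept out 122 clones at the gain from stage IIIb, 137 at the earlier rise, 17 at the gain over stage I and 7 at the stage V level. Without stage IIIb replicate 2, the array with the lowest median of the 46 in its group, 30 clones met the conditions, 25 of them among the 46.

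Stage V arrays that took no part in the choice were compared with stage IIa, while the step from stage IIIb was not checked in this way. With each stage V array left out in turn, 45 to 60 clones were chosen again, 38 to 44 of them among the 46. Against the mean of stage IIa, the left-out replicate 1 was higher for 57 of 58 clones, replicate 2 for 43 of 45, replicate 3 for 60 of 60 and replicate 4 for 48 of 49. The same held for 45.6% to 46% of all clones. The median difference in the left-out array was between 0.96 and 1.28 on the log2 scale.

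On single arrays, the median of the 46 clones lay between 7.86 and 7.98 in the 4 stage IIa testes and between 7.81 and 8.03 in the 6 spermatogonia samples. It was 8.44, 8.03 and 8.32 in stage IIIb replicates 1 to 3, and between 8.92 and 9.23 in stage V. The spermatocyte samples lay between 8.12 and 8.83. The samples of the remaining late groups differed widely among themselves, with 8.81, 8.27 and 8.05 in stage VIII replicates 1 to 3 and 8.83, 8.05 and 9.69 in spermatid replicates 1 to 3. Thus all spermatocyte arrays lay above all spermatogonia and stage IIa arrays, whereas spermatid replicate 2 lay just above the highest spermatogonia sample and spermatid replicate 3 above every stage V array. A mean at or above background was found in stage IIa for 17 of the 46 (49.7% of all clones), in spermatogonia for 19 (49.6%), in spermatocytes for 29 (48.9%), in spermatids for 42 (50.1%) and in stage VIII for 29 (49.3%). The 46 had to be above background in stage V and all clones did not, so that these shares are no like base. On single arrays, 41, 20 and 42 of the 46 were at or above background in spermatid replicates 1 to 3.

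**Figure D1:**
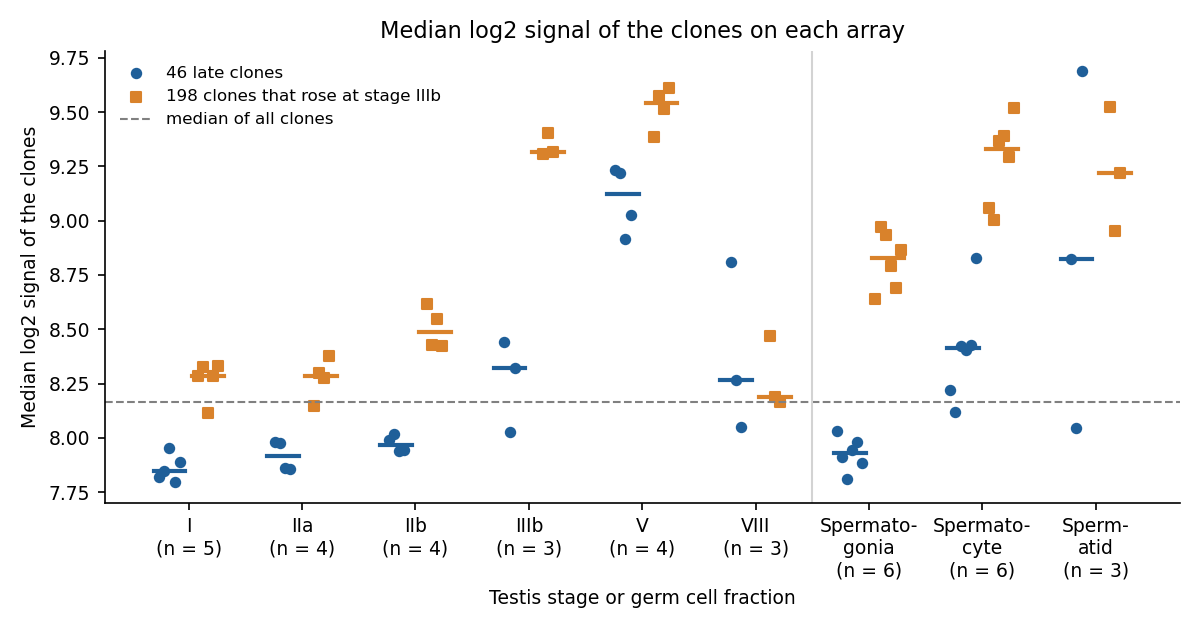
Median log2 signal of the 46 clones (circles) and of 198 clones that rose at stage IIIb and stayed level (squares), 1 point for each array, by testis stage or germ cell fraction (n below each). Horizontal bars are the median over the arrays and the dashed line is the median of all clones, 8.166. The 46 clones reach 8.92 to 9.23 in stage V, and the 3 spermatid arrays run from 8.05 to 9.69.

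The isolated germ cells gave the first independent comparison, namely in which germ cell fraction these clones were higher. Donor stage differed along with cell type. With limma fitted over all clones, 26 of the 46 were higher in spermatids than in spermatogonia (Benjamini-Hochberg adjusted p under 0.05), against 9.74% of all clones, and 0 were lower, against 11.6%. At an unadjusted p under 0.05 the counts were 33 and 0, against 15.5% and 18.3% of all clones. The median difference of the 46 was 0.80 and 44 were positive, whereas the median of all clones was 0.00 and 49.7% of them were positive. Without spermatid replicate 3, 10 passed (3.46% of all clones did), with a median of 0.62, and without spermatid replicate 2, 35 passed (14.5% of all clones), with a median of 1.13. In 16 clones all 3 spermatid arrays lay above all 6 spermatogonia arrays, which held for 6.17% of all clones.

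Some of the clones were higher in spermatocytes too. In them 18 of the 46 were higher than in spermatogonia (12% of all clones) and 1 was lower (14.9%), with a median difference of 0.47. The arrays did not overlap for 12 clones in this direction, against 4.15% of all clones. The clone that fell was tcay0041.b.07. Both comparisons share the spermatogonia samples. Of the 46, 15 passed as higher in both cell types (6.88% of all clones), 11 in spermatids with the spermatocyte comparison not passing (2.86%), 3 in spermatocytes with the spermatid comparison not passing (5.14%), and 17 in neither (85.1%). Without spermatid replicate 3 these counts were 6, 4, 14 and 22 (2.94%, 0.521%, 9.88% and 86.7% of all clones).

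**Figure D2:**
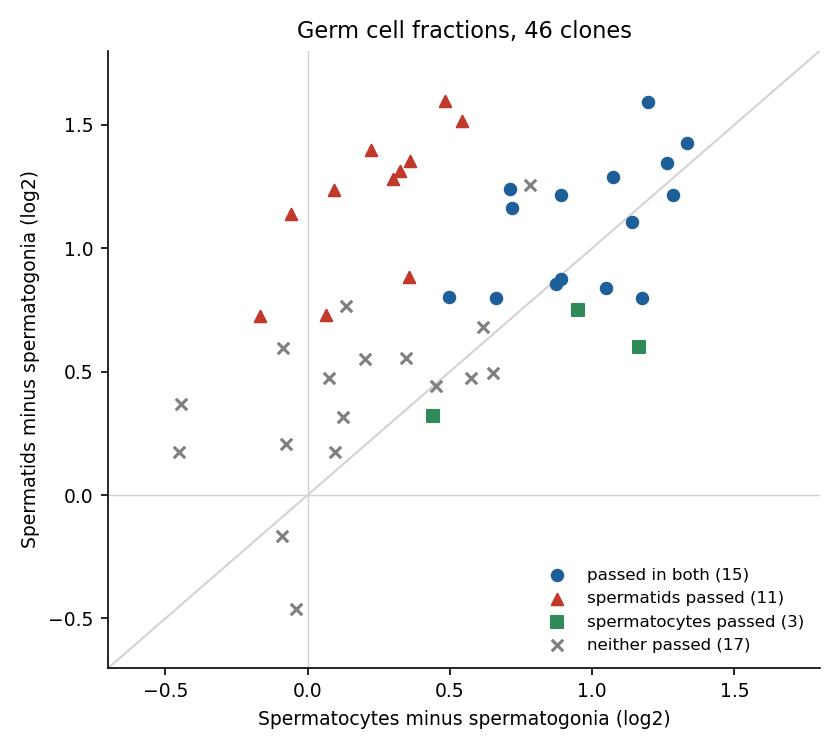
Difference in mean log2 signal from spermatogonia in spermatocytes (horizontal axis) and in spermatids (vertical axis), 1 point for each of the 46 clones, marked by which comparison passed at an adjusted p under 0.05. The diagonal marks equal differences. The 11 triangles lie above it, while the 15 circles lie on both sides.

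Spermatids and spermatocytes were also compared directly. A single clone passed as higher in spermatids, against 0.0665% of all clones (6 clones), and 0 as lower, which was also the count over all clones (0%). At an unadjusted p under 0.05, 17 of the 46 were higher and 0 lower, against 4.92% and 3.66% of all clones. The median difference was 0.29, with 32 clones positive, against a median of -0.01 and 48.3% positive over all clones. The count of passing clones rested on the spermatid arrays. Without spermatid replicate 2, 16 clones passed, when 2.32% of all clones did, with a median of 0.58. Without spermatid replicate 3, 0 passed, when 0.0443% did, with a median of 0.13 and 28 clones positive. The count was also 0 when spermatocyte replicate 3, 4 or 6 was left out.

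Clone tcay0039.i.23 was the one that passed, and is described for that reason, after its values were seen. Its log2 signal was 8.43, 7.43 and 9.46 in spermatid replicates 1 to 3 and between 7.08 and 7.47 in the 6 spermatocyte samples, with a median of 7.35. It lay between 6.90 and 7.52 in spermatogonia and between 6.82 and 7.07 in stage IIa. Replicates 1 and 3 stood above every spermatocyte sample and replicate 2 fell within their range. The difference from spermatocytes was 1.14 ± 0.24 (SE; 2.21-fold, limma adjusted p = 0.039), and did not pass without spermatid replicate 3 (0.63, limma adjusted p = 0.61) or replicate 1 (1.15, limma adjusted p = 0.055). It did not pass with array weights, with a floor at the array median, with the 5 groups alone or with a replicate block either (limma adjusted p = 0.29, 0.072, 0.43 and 0.10). In stage V it measured 8.35, 8.70, 8.52 and 8.25, and in stage IIIb 7.61, 7.08 and 7.58.

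The largest differences between spermatids and spermatogonia were those of 1rt112j20_d_e10 and tcaa0002.f.16. Clone tcaa0002.f.16 measured 10.50, 9.70 and 10.60 in spermatids, 9.47 to 10.14 in spermatocytes (median 9.99) and 8.36 to 8.93 in spermatogonia (median 8.70). Both meiotic and post-meiotic samples lay clear of all spermatogonia. The differences from spermatogonia were 1.59 ± 0.26 (SE; 3.02-fold, limma adjusted p = 6.0e-05) in spermatids and 1.20 ± 0.22 (SE; 2.29-fold, limma adjusted p = 6.4e-05) in spermatocytes.

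Clone 1rt112j20_d_e10 measured 8.48, 8.20 and 10.33 in spermatids, 7.62 to 8.17 in spermatocytes (median 7.88) and 7.03 to 7.85 in spermatogonia (median 7.39). Here the spermatids lay above both other cell types, by little in replicates 1 and 2 and by much in replicate 3. Spermatids exceeded spermatogonia by 1.60 ± 0.30 (SE; 3.02-fold, limma adjusted p = 0.00019), and the spermatocyte difference of 0.49 did not pass. Its stage IIa values of 8.37, 8.29, 7.65 and 7.95 were higher than those of most spermatogonia samples, so that the gain over stage IIa was smaller, at 0.94 ± 0.32 (SE; limma adjusted p = 0.026). Without spermatid replicate 3 the gain was 0.93 over spermatogonia (limma adjusted p = 0.026) and 0.28 over stage IIa (limma adjusted p = 0.56). The gain over stage IIa did not pass either without stage IIa replicate 3 or 4, with array weights or with the 5 groups alone (limma adjusted p = 0.080, 0.055, 0.071 and 0.076).

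**Figure D3:**
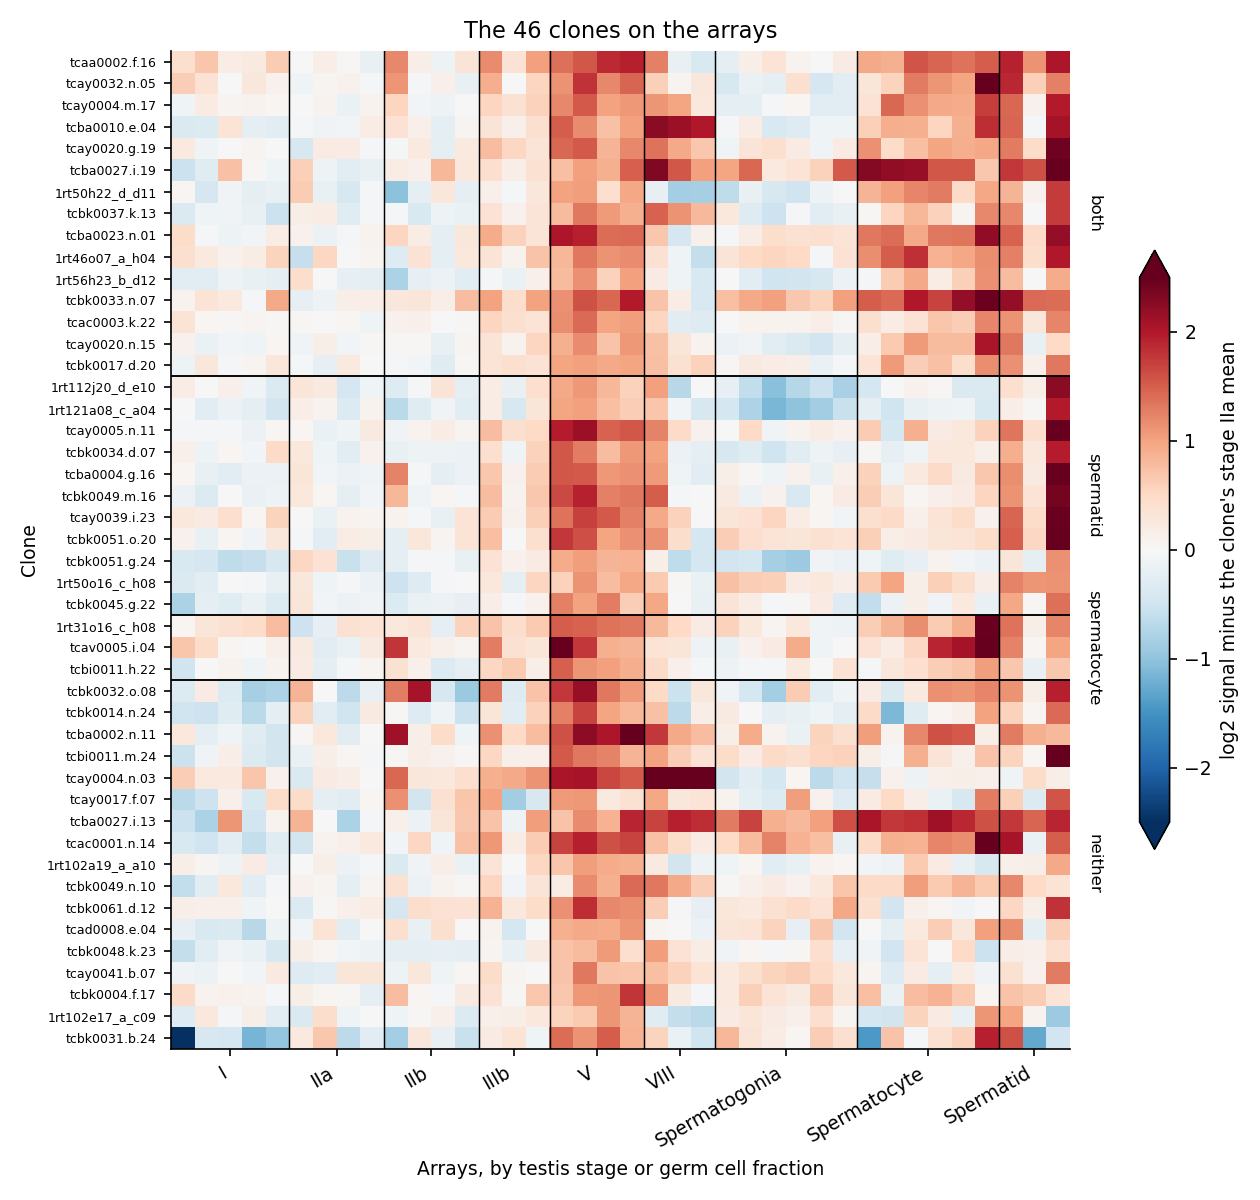
The 46 clones (rows) on the 38 arrays (columns, by stage or fraction), as log2 signal minus the mean of each clone in stage IIa, red above and blue below it. Rows are grouped by which comparison with spermatogonia passed, both (15), spermatids (11), spermatocytes (3) or neither (17), and ordered by the spermatid difference within each. Spermatid replicate 3 and stage VIII replicate 1, the last and the first column of their groups, are the highest of their group for 32 and 45 clones.

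At the other end, 2 unnamed clones had the smallest difference. Clone tcbk0004.f.17 measured 8.75, 8.66 and 8.37 in spermatids and 8.25 to 8.70 in spermatogonia (median 8.35), and the ranges overlapped. Its difference of 0.17 ± 0.23 (SE) did not pass, nor did any other of its 7 comparisons. Clone 1rt102e17_a_c09 measured 8.81, 7.93 and 6.91 in spermatids and 7.91 to 8.25 in spermatogonia (median 8.03). These spermatid arrays lay on both sides of the spermatogonia, and the difference was -0.17 ± 0.27 (SE).

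Neither clone with a symbol passed in spermatids. For tcav0005.i.04 (si:ch211-137i24.10) the spermatocyte samples ran from 7.66 to 10.35 (median 8.67), against 7.27 to 8.38 in spermatogonia (median 7.52), and the spermatids measured 8.70, 7.51 and 8.45. The spermatocyte samples thus spanned a wide range that overlapped with spermatogonia. The gain in spermatocytes was 1.16 ± 0.36 (SE; 2.24-fold, limma adjusted p = 0.013) and did not pass without spermatocyte replicate 6, the highest (0.85, limma adjusted p = 0.058). For tcbk0031.b.24 (LOC100301659) the spermatids measured 10.93, 8.06 and 8.87 and the spermatogonia 9.39 to 10.18 (median 9.72), a difference of -0.46 ± 0.48 (SE). This clone passed in none of the 7 comparisons and reached 10.75, 10.47, 10.86 and 10.21 in stage V.

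The cell types were also compared with immature testis in stage IIa, in place of isolated spermatogonia. In spermatids 30 clones were higher (13.3% of all clones) and 0 lower (13.9%, and 0 at an unadjusted p under 0.05, against 19.1% of all clones), with a median difference of 0.92. In spermatocytes 22 were higher (16.9%) and 0 lower (16.7%, and again 0 unadjusted, against 20.8%), with a median of 0.50. In spermatogonia 3 were higher (12%) and 1 lower (10.3%), with a median of 0.09. Without spermatid replicate 3 the count of 30 was 16, when 8.89% of all clones passed. These comparisons share the stage IIa samples, and the isolated cells, unlike the testes, had been digested and shaken overnight. The clones higher in spermatogonia were tcba0027.i.13, tcba0027.i.19 and tcbk0033.n.07, and 1rt121a08_c_a04 fell.

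The clones that had already risen at stage IIIb were measured beside them. These were 198 clones picked by mirrored conditions, of which 11 had a symbol. They gained at least 0.6 from stage IIb to stage IIIb and less than 0.5 from there to stage V, where a fall was not barred. The conditions on the gain over stage I and on the stage V mean were the same. In spermatogonia 104 of the 198 were higher than in stage IIa (12% of all clones), with a median of 0.55, against 3 of the 46. From spermatogonia to spermatids 63 of the 198 rose (9.74% of all clones) and 5 fell (11.6%), with a median of 0.36 against 0.80. From spermatocytes to spermatids 0 passed in either direction (0.0665% and 0% of all clones), with a median of -0.06 against 0.29. Without spermatid replicate 3 the 2 medians of the 46 were 0.62 and 0.13, and those of the 198 were not computed. In spermatid replicates 1 to 3 the array median was 9.52, 8.95 and 9.22 for the 198. It was 8.83, 8.05 and 9.69 for the 46, above the 198 in replicate 3 alone. At an unadjusted p under 0.05, 3 of the 198 were higher and 9 lower in spermatids than in spermatocytes (4.92% and 3.66% of all clones). In spermatocytes over spermatogonia the medians were 0.41 and 0.47. Against stage IIa, 177 of the 198 were higher in spermatocytes (16.9% of all clones) and 146 in spermatids (13.3%), where the median of 0.90 lay near the 0.92 of the 46. In stage VIII 23 of the 198 were higher than in stage IIa (11.6%, near the 11% of all clones) and 14 lower (7.07%, against 12.4%). The difference between the sets was not tested.

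**Figure D4:**
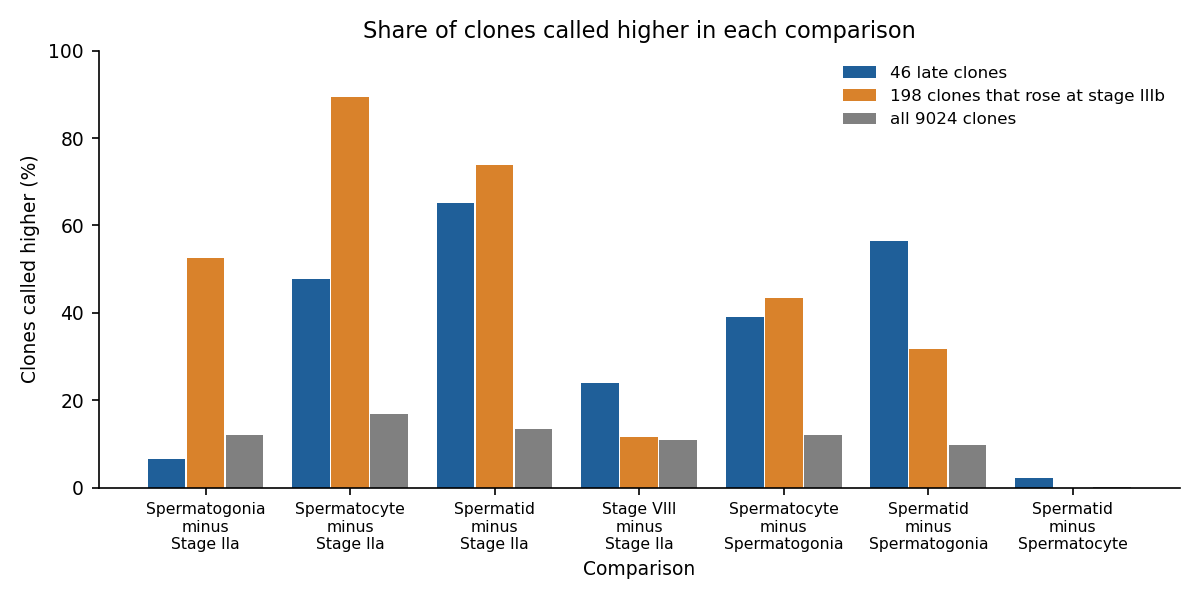
Share of clones called higher by limma (percent, adjusted p under 0.05) in 7 comparisons of groups that took no part in the choice, for the 46 clones, for the 198 clones that rose at stage IIIb and for all 9024 clones. In spermatids over spermatogonia the counts are 26 of 46 and 63 of 198, and in spermatogonia over stage IIa 3 of 46 and 104 of 198.

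Over the 5 groups together, limma's F-test called 29 of the 46 as varying (adjusted p at most 0.005), against 41.5% of all clones and 170 of the 198. The highest mean among these 5 groups was in spermatids for 27 clones, in spermatocytes for 11, in stage VIII for 6 and in spermatogonia for 2. The lowest was in stage IIa for 23 and in spermatogonia for 13. These counts were not made over all clones, so that they describe the 46 and do not show whether such counts are unusual. The spermatid means rested on 3 arrays, which agreed least within their group (mean correlation of 0.21, each clone centred on its mean). In none of the 7 comparisons did 9 of the 46 clones pass (36.9% of all clones), whereas 37 were higher in at least 1 (38.3%) and 2 lower in at least 1 (35.6%). Over the 22 arrays of these groups, the Pearson correlation between pairs of the 46 clones had a median of 0.45 and ran from -0.42 to 0.94 over 1035 pairs, in arrays that share their samples and normalization. The closest pair was tcay0039.i.23 and tcbk0051.o.20.

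Spawning testes were compared with stage IIa, since the choice of clones for a high stage V mean already favours a fall from stage V (40 of the 46 had a lower mean in stage VIII than in stage V). Compared with stage IIa, 11 were higher in stage VIII (11% of all clones) and 0 lower (12.4%, and 1 of the 46 at an unadjusted p under 0.05, against 19.2% of all clones), with a median of 0.29. Stage VIII replicate 1 had the highest value of its group for 45 of the 46 clones, against 34.7% of all clones. Without it 7 passed, when 8.96% of all clones did, and the median was 0.02. With signals below the array median raised to it, 5 passed, when 10.3% of all clones did.

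The clone with the largest gain in stage VIII was tcay0004.n.03, described here after its values were seen. It measured 12.33, 11.02 and 11.41 in stage VIII and 7.53, 8.09, 8.05 and 7.88 in stage IIa. In stage V it measured 9.92, 9.94, 9.56 and 9.41, and in the 15 samples of isolated germ cells between 7.22 and 8.35. All stage VIII arrays thus lay above all stage V arrays, and these above all isolated cells, which did not pass above stage IIa. The gain from stage IIa to stage VIII was 3.70 ± 0.25 (SE; 13-fold, limma adjusted p = 1.1e-13).

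Clone tcba0010.e.04, also described after its values were seen, followed with 10.43, 10.30 and 10.17 in stage VIII and 8.08 to 8.36 in stage IIa, a gain of 2.13 ± 0.29 (SE; 4.39-fold, limma adjusted p = 1.4e-06). Unlike the first, it was high in spermatids, at 9.63, 8.12 and 10.24, and in spermatocytes, at 8.70 to 10.01 (median 9.06), against 7.79 to 8.35 in spermatogonia (median 8.06). The spermatocytes lay clear of the spermatogonia, as did 2 of the 3 spermatid arrays. The gains over spermatogonia were 1.29 ± 0.27 (SE; limma adjusted p = 0.00061) in spermatids and 1.07 ± 0.22 (SE; limma adjusted p = 0.00029) in spermatocytes. Without spermatid replicate 3 the spermatid gain was 0.83 (limma adjusted p = 0.053).

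**Figure D5:**
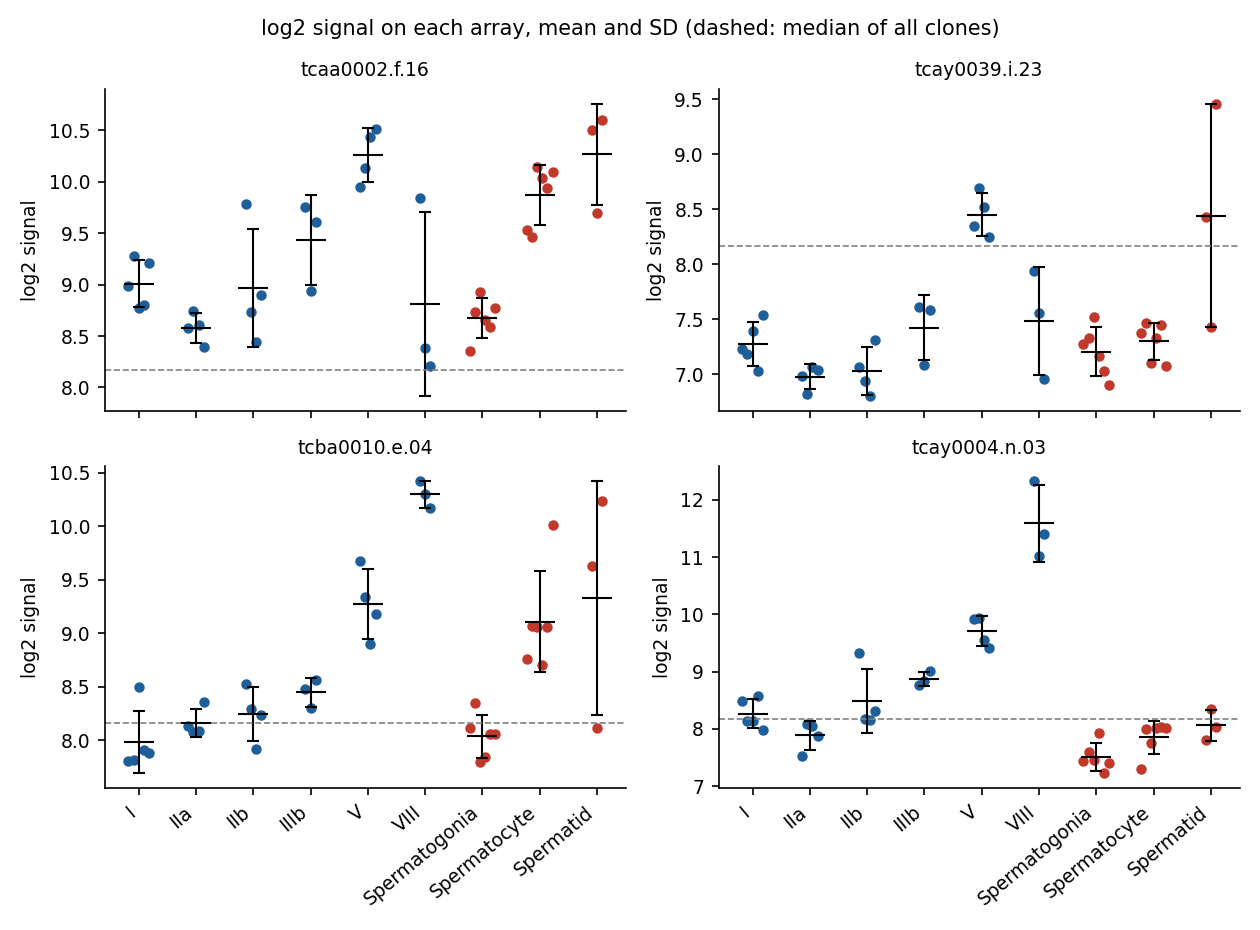
log2 signal of 4 clones on each array, by testis stage (blue) and germ cell fraction (red), with the mean and SD of each group in black and the median of all clones dashed. Clone tcaa0002.f.16 is high in spermatocytes and spermatids, tcay0039.i.23 in 2 of 3 spermatid arrays, tcba0010.e.04 in these cells and in stage VIII, and tcay0004.n.03, at 11.02 to 12.33, in stage VIII.

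The 2 clones with the highest stage V means were bright in every group. Clone tcba0027.i.13 measured 11.97, 12.44, 12.13 and 13.17 in stage V, with 12.95, 13.20 and 13.11 in stage VIII and 12.10, 11.26, 10.46 and 11.20 in stage IIa, near the top of the signal range. It was higher than in stage IIa in stage VIII by 1.83 ± 0.34 (SE; limma adjusted p = 0.00015) and in all isolated cells, spermatogonia included (1.22 ± 0.28, SE; limma adjusted p = 0.0017), whereas its gains from spermatogonia to the later cells did not pass. Clone tcba0002.n.11 measured 10.90, 11.56, 11.34 and 12.10 in stage V, with 11.08, 10.26 and 10.09 in stage VIII and 9.34, 9.57, 9.02 and 9.32 in stage IIa. All its stage VIII arrays lay above stage IIa, and the gain was 1.16 ± 0.37 (SE; limma adjusted p = 0.020), which did not pass without stage VIII replicate 1 (0.86, limma adjusted p = 0.14).

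Markers of cell types were read on the same arrays. The spermatid list (5 clones of 4 genes of 17 listed, cetn4, ift122, Txndc6 and spata4) had a summed linear signal of 5483, 2029 and 5843 in spermatid replicates 1 to 3 and of 2186, 1020 and 928 in stage VIII replicates 1 to 3. It ranged from 4620 to 6164 in stage V, from 1069 to 1203 in stage IIa and from 1195 to 1719 in spermatogonia. In spermatocytes it ranged from 3138 to 6474, with a highest value above every spermatid array. The spermatocyte list, sycp3 alone, had a median of 2907 in spermatids and of 1184 in spermatocytes. Neither list thus tells spermatids from spermatocytes. The matrix list (3 clones of collagen genes, 2 of 7 listed) summed to 1385, 7303 and 1448 in spermatid replicates 1 to 3. Low values of the 46 clones in spermatid replicate 2 thus went with a low spermatid sum and a high collagen sum, and high values in stage VIII replicate 1 with a high spermatid sum. The other lists were mixed in spermatid replicate 2. Its Sertoli and spermatogonia sums were also the highest of the spermatid arrays (1488 and 3787). Its sums for Leydig cells, red blood cells and spermatocytes (sycp3 alone) were the lowest of them (1232, 740 and 1160). Its Leydig and red blood cell sums lay near the floor. Of 5 Leydig clones, 3 were under background in each spermatid array. Of 4 red blood cell clones, 1, 4 and 3 were under it in spermatid replicates 1 to 3, and of 3 Sertoli clones 3, 2 and 0. In stage VIII replicate 1 the spermatogonia and sycp3 sums were likewise the highest of the stage VIII arrays (1009 and 595). Its Leydig, Sertoli, matrix and red blood cell sums were the lowest of these (6006, 1871, 14836 and 24633). Spermatid replicate 3, the highest for the 46, had spermatid and collagen sums close to those of replicate 1. Stage VIII also had the highest sums for Leydig cells (5 of 11 genes, 6006 to 12629, against 4102 to 4969 in stage IIa) and red blood cells (4 of 14 genes, 24633 to 26252, against 7358 to 16544). The Leydig genes did not move together. Mean log2 signal was higher in stage VIII than in stage IIa for cyp17a1, star and lhcgr. It was slightly lower for hsd3b1 (10.44 against 10.77) and cyp11b (8.90 against 8.97). The part of these cells in the results was not tested.

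The spermatid markers on the array were higher in spermatocytes as well as spermatids. All 4 clones of the flagellum list were higher in both than in spermatogonia, with medians of 1.64 and 1.49, and 0 passed between spermatids and spermatocytes or between stage VIII and stage IIa. The meiotic gene sycp3, a component of the synaptonemal complex and the 1 match of that list, and the chromatin gene hmgb1a were likewise higher in both cell types. Of 7 clones for the ubiquitin and proteasome list, 3 rose and 1 fell in each cell type, and of 4 for ribosomal proteins 0 passed against spermatogonia. Among 2 clones for energy metabolism (gapdh and ndufa1) 1 fell in spermatocytes, and 1 rose and 1 fell in spermatids, while 0 of 3 for membrane traffic and autophagy passed. The lists for cell division and for splicing matched 0 clones. These lists show what the named genes on the array did. None of them held a member. Of spata4, cetn4, ift122 and hmgb1a, which were barred by name, only spata4 met the other conditions.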

How the data were processed

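Each array carried labelled cDNA of 1 sample. Per the Methods, the authors scanned it on a phosphorimager, read the signals with BZscan, divided each spot's signal by its vector signal, multiplied by the median vector signal of that spot and, in AMEN, took log2 and quantile normalized. The deposited log2 values were used as they stood, with versions not given in the sources used here, so that a change is relative to all clones on the array. The table had 9216 entries, 192 of them empty, and 190 clones lacked some values, none of them among the 46. The low-vector filter of the authors was not used here.

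Means of the 9 groups were fitted with limma 3.58.1 (R 4.3.3) to all 38 arrays and 9024 clones (prior df 7.3, residual df 29), with Benjamini-Hochberg adjustment over all clones in each of 7 comparisons. Limma was used in place of the permutation F-test of the Methods because groups were small. It was first run on simulated data with the same noise in all groups for each clone, which cannot show how it does where spread differs between groups. The number of arrays limits the precision. Each clone had 1 variance shared by all groups, those that chose the clones included, so that an SE does not show unequal spread. For tcay0039.i.23 the SD was 1.01 in spermatids and 0.17 in spermatocytes. For 1rt112j20_d_e10 it was 1.15 in spermatids and 0.28 in spermatogonia. Alternatives were array weights, centring, renewed quantile normalization, a floor at the array median, a filter on dim clones, the 5 unused groups alone, a replicate block, members by medians and each array left out.

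The 46 clones, the gene lists and the markers were chosen with earlier results of these data known. Clones described singly were those with a symbol, the 2 brightest in stage V, the 2 largest and the 2 smallest unnamed differences between spermatids and spermatogonia, and those just beside each limit. Clones tcay0039.i.23, tcay0004.n.03 and tcba0010.e.04 were added after their values were seen. Symbols came from the array annotation, and from the paper for a few clones. Sequences of the clones were not used here.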

Additional observations from a re-analysis of the deposited data

Results flagged for a closer look

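Values were checked for a sample far from the rest of its group in 72 sets of 4 to 6 arrays, of which chance sets apart about 1 in 20, and 6 stood out. The median over the 46 clones stood out in no group of that size. In stage I, tcbk0004.f.17 measured 8.51 in replicate 1, against 8.01 to 8.13 in the others, and tcba0010.e.04 8.50 in replicate 3, against 7.81 to 7.91. In stage IIb, replicate 1 was high for tcav0005.i.04, with 9.25 against 7.52 to 7.71, and for tcay0004.n.03, with 9.33 against 8.15 to 8.31. In spermatogonia, tcav0005.i.04 measured 8.38 in replicate 4, against 7.27 to 7.68. In spermatocytes, tcba0010.e.04 measured 10.01 in replicate 6, against 8.70 to 9.07.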

How the results depend on the processing

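Leaving out 1 array at a time gave 30 to 67 clones by the conditions of the choice, the lowest without stage IIIb replicate 2. A gain from stage IIIb of at least 0.8 gave 25, group medians 51 (29 of the 46 among them), and a floor, with signals raised to the array median, 59 (24 of the 46). In the left-out stage V array the median difference from stage IIa was 0.96 to 1.28, against 1.17 with all arrays. The counts of higher clones ranged without 1 array from 2 to 3 (spermatogonia over stage IIa), 18 to 23 (spermatocytes), 16 to 38 (spermatids), 7 to 12 (stage VIII), 17 to 21 (spermatocytes over spermatogonia), 10 to 35 (spermatids over spermatogonia), 0 to 16 (spermatids over spermatocytes) and 22 to 34 (F-test). The shares of all clones moved in these fits too. In the same order they ran from 6.7% to 12.4%, 13.8% to 16.6%, 8.89% to 16.5%, 7.34% to 11.3%, 9.87% to 12.4%, 3.46% to 14.5% and 0.0332% to 2.32%. For the F-test the share was counted in the main fit only (41.5%). The counts of lower clones ranged from 0 to 3 in spermatogonia over stage IIa (7.88% to 10.7% of all clones) and from 0 to 1 in spermatocytes over spermatogonia (13% to 14.9%). Array weights gave 6 higher and 2 lower clones in spermatogonia over stage IIa (18.2% and 15.9% of all clones), 2 lower in stage VIII (19.5%) and 0 higher in spermatids over spermatocytes (0.0111%). The floor gave 0 lower in spermatogonia (7.42%), 5 of 46 higher in stage VIII, near the 10.3% of all clones, 2 higher in spermatids over spermatocytes (0.521%) and 15 by the F-test. Arrays of the 5 groups alone gave 0 lower in spermatocytes over spermatogonia (12.1%) and 0 higher in spermatids over spermatocytes (0%), and members by medians gave 28 higher, 0 lower and 0 higher in these. The cause of these shifts was not tested. The other counts stayed within 1.5 times under these settings, and the filter on dim clones moved no count beyond that. Centring and renewed quantile normalization did not either, which says little. The deposited values were already quantile normalized, and these 2 settings changed them by at most 8.24e-06 and 0.0134.

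The spermatid difference from spermatogonia turned positive for tcbk0031.b.24 with array weights (0.058) and without spermatid replicate 2 (0.15), with a range without 1 array of -1.29 to 0.15, and for 1rt102e17_a_c09 with array weights (0.10), the floor (0.20) and without spermatid replicate 3 (0.32), with a range of -0.63 to 0.32. Groups shared replicate numbers. The deviations of same-numbered arrays of different groups had a mean correlation of 0.00 over 127 pairs, and ran from -0.40 to 0.56. Those of other pairs from different groups ran from -0.54 to 0.45. Such a mean does not show whether single pairs shared a batch, which was not tested. A replicate block gave 0 higher clones in spermatids over spermatocytes in place of 1 and moved no other count by over 1.5 times.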

Other observations

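Arrays with the least weight in a weighted fit were spermatid replicates 3 and 2, with 0.264 and 0.274, and stage IIb replicate 1, with 0.292. Spermatid replicate 2 had the lowest value of its group for 39 of the 46 clones and replicate 3 the highest for 32, whereas over all clones these shares were 32.5% and 32.7%.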
